A study of Mus musculus with 9 samples.

Results

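The enzymes that write and erase lysine marks on histones were examined in MC38 cells, a mouse colon adenocarcinoma line, given vehicle, a copper-cystine particle or the Cadict nanodrug. Members were taken by symbol, as every gene named Kdm, Kmt, Hdac, Kat or Sirt with a number, every gene named Setd with a number or b, and every gene beginning with Ezh. This gave 64 of the 16509 genes in the table. They comprised 28 writers, of which 20 were lysine methyltransferases and 8 acetyltransferases, 35 erasers, of which 17 were demethylases, 11 deacetylases and 7 sirtuins, and Ezhip, an inhibitor of PRC2 that is no enzyme. Writers and erasers whose symbols do not match (such as Suv39h1, Ehmt2, Nsd1 or Jmjd6) were not counted as members and are described after them.

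Histone lysines carry methyl and acetyl groups that mark how a stretch of chromatin is used. Methylation of H3K4 and acetylation accompany active promoters and enhancers, methylation of H3K36 lies along transcribed gene bodies, and methylation of H3K27, H3K9 and H4K20 accompanies silent or compacted chromatin. Methyltransferases take the methyl group from S-adenosylmethionine and acetyltransferases take the acetyl group from acetyl-CoA, while most demethylases need iron, oxygen and 2-oxoglutarate and the sirtuins need NAD. Several members act mainly on other proteins: Setd3 on actin, Hdac6 on tubulin, and Sirt3, Sirt4 and Sirt5 inside mitochondria.

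Bulk mRNA of the cells was sequenced in 3 groups of 3 libraries. The Ctrl group is labelled as given DMSO, whereas the study's legends name PBS. Cu-Cys is the particle that copper ions and cystine form by coordination, and Cadict is that particle with glucose oxidase and the EGFR-binding peptide GE11. All groups are the same unmodified line. Doses and times for these libraries are not given in the sources used here, nor is it stated whether the libraries came from separate cultures, so p-values measure the spread between libraries, which may be technical.

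Libraries held 17905771 to 18293056 expected counts. At this depth 0 counts in a library allow up to 0.164 to 0.168 CPM (counts relative to the library total, here 3 counts), which covers counting error only. Cadict replicate 2 stood apart from the other libraries of its group, with a chi-square per gene of 13.7 against replicate 1 and 21.6 against replicate 3, compared with 3.46 between those, and 1.87 to 4.42 within Ctrl and Cu-Cys. The markers that define an epithelial cell were low: Epcam had 0 counts in every Ctrl and Cu-Cys library and Krt18 had 0 to 2 counts in any library. Cdh1 had 99 to 120 counts in Ctrl, 65 to 71 in Cu-Cys and 145 to 152 in Cadict. Krt19 had 19 to 33, 14 to 21 and 119 to 131 in that order. On the TPM scale, which allows for transcript length, the 6 epithelial and colon markers in the table summed to 4.22 to 6.24 in Ctrl. The sum was 3.50 to 3.95 in Cu-Cys and 11.5 to 13.2 in Cadict. The 4 fibroblast markers summed to 163 to 184 TPM in Ctrl, 62.0 to 66.5 in Cu-Cys and 6.31 to 8.13 in Cadict, with Col3a1 leading the list. Among them Dcn was low and changed little, with a mean TPM of 0.83, 0.71 and 0.60 in that order. Leukocyte and endothelial markers summed to at most 1.77 TPM in any library. The part of these markers in the results below was not tested, and in bulk RNA fewer cells of a type and less RNA per cell cannot be told apart.

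Promoter windows of 4 members that carry the main contrasts are shown first, from 250 bases before to 50 after the start site, in the RefSeq annotation of GRCm38.p6. Kdm7a is the member that rose most with Cadict and Kdm1b the member that fell most, and Ezh2 and Ezh1 are alternative catalytic subunits of PRC2 that moved apart. The windows lie at chr6:39206724-39207023 (minus strand), chr13:47043249-47043548 (plus strand), chr6:47594981-47595280 (minus strand) and chr11:101226414-101226713 (minus strand). Capitals mark matches on either strand to the GC box (GGGCGG), the CCAAT box (CCAAT), the core of the antioxidant response element (TGACNNNGC) and the core of the metal response element (TGCNCNC).
Kdm7a: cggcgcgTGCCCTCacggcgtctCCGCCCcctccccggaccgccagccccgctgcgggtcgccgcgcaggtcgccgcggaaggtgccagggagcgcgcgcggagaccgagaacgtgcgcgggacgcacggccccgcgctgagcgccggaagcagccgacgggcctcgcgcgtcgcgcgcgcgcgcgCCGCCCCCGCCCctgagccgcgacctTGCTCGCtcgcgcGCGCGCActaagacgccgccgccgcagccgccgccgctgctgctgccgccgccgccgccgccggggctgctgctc
Kdm1b: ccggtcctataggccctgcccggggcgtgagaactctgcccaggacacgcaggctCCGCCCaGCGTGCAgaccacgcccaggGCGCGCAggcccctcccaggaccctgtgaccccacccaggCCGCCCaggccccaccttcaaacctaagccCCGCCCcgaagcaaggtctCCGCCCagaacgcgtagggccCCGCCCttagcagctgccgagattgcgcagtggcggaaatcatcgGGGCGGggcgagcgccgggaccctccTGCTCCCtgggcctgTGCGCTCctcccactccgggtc
Ezh2: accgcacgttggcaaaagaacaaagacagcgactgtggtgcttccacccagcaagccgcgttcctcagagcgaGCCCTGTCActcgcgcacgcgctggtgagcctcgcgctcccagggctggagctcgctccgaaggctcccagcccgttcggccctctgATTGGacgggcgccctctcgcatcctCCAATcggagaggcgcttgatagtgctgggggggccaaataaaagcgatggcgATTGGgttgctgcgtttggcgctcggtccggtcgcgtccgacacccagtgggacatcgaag
Ezh1: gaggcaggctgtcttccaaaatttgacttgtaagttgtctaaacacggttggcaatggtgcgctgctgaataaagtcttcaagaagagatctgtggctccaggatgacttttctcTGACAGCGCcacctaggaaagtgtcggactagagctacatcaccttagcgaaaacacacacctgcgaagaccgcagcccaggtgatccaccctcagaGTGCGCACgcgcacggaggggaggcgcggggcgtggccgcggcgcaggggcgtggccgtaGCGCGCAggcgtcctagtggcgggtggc

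Windows were found for 52 of the 64 members, 72 windows in all, since some genes have several start sites. The Kdm7a window held 3 GC boxes and 3 metal response cores, and the Kdm1b window 6 and 4 of the same, so both the strongest rise and the strongest fall came with GC-box promoters. The Ezh2 window held 3 CCAAT boxes and no GC box, and the Ezh1 window held neither. Over the members, 59.7% of windows held a GC box against 35.7% of all 32851 windows, beside a GC content of 62.1% against 53.8%. Metal response cores were in 56.9% of member windows and 51.0% of all windows, antioxidant response cores in 19.4% and 12.4%, and CCAAT boxes in 44.4% and 37.4%. The amino acid response element (TGATGNAA) was in 1.39% against 3.97%, the paired heat shock unit (GAANNTTC) in 5.56% against 7.86%, the E-box (CACGTG) in 6.94% against 7.15%, and the cyclic AMP response element (TGACGTCA) in none of the member windows against 1.79%. A match is a run of letters and does not show that a factor was bound.

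With Cadict the histone-modifying enzymes fell more often than they rose, as did all genes tested, and a smaller share of them rose than of all genes. The median change was lower over the writers than over the erasers. Of the 61 members with enough counts to test, 5 rose and 19 fell by at least 2-fold with an adjusted p up to 0.001, where 20.7% of all 11949 genes tested rose and 27.1% fell. Against that background 8.20% of the members rose and 31.1% fell. Under a wider rule, an adjusted p up to 0.05 whatever the fold, 20 rose and 37 fell, against a background of 40.6% and 47.1%. The 5 that rose were the demethylases Kdm7a and Kdm6b, the acetyltransferases Kat7 and Kat8, and the sirtuin Sirt1. On TPM, tested with limma on log2(TPM + 1), Kat8 was lower (-0.23, adjusted p = 0.0131), and Kat7 (-0.19, adjusted p = 0.0801) and Sirt1 (-0.23, adjusted p = 0.0757) did not pass the wider threshold. The 19 that fell were, in order of size, Kdm1b, Kmt5c, Setd1b, Kdm2b, Ezh1, Sirt5, Kat6b, Kat14, Setdb2, Kmt2b, Hdac7, Kat2b, Setd4, Kat2a, Kdm3b, Hdac6, Kmt2e, Kdm8 and Kdm5b. Without Cadict replicate 2 the counts were 5 and 16. Adjusted p-values are from edgeR's quasi-likelihood test over all genes, levels are TMM-scaled CPM, and changes are log2 fold changes ± SE.

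Among the 28 writers, 2 rose and 11 fell by at least 2-fold, and the median change was -0.67, where the median of all genes tested was -0.13. Among the 33 erasers tested, 3 rose and 8 fell, with a median of -0.16. Below 0 lay 22 of the writers (78.6%) and 18 of the erasers (54.5%), beside 53.6% of all genes tested. The ranges overlapped almost wholly, from -2.63 to 1.09 for writers and from -2.64 to 2.37 for erasers. The difference of the medians was -0.51 with Cadict against Ctrl. It was -0.49, -0.54 and -0.42 in the 3 Cadict libraries when each was set against the Ctrl mean. It was 0.078 to 0.092 in the Cu-Cys libraries, above all Cadict libraries, and 0.0018 to 0.0085 in the Ctrl libraries. The Ctrl values are held near 0 because the mean of the same libraries is the reference, so their distance from Cu-Cys shows no difference by itself. Summed over the members, writer transcripts were 0.937 to 0.950 times eraser transcripts in Ctrl, 1.00 to 1.02 times in Cu-Cys and 0.688 to 0.750 times in Cadict, on the TPM scale. Members are not replicates of a condition, so no test was run on these medians.

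**Figure D1:**
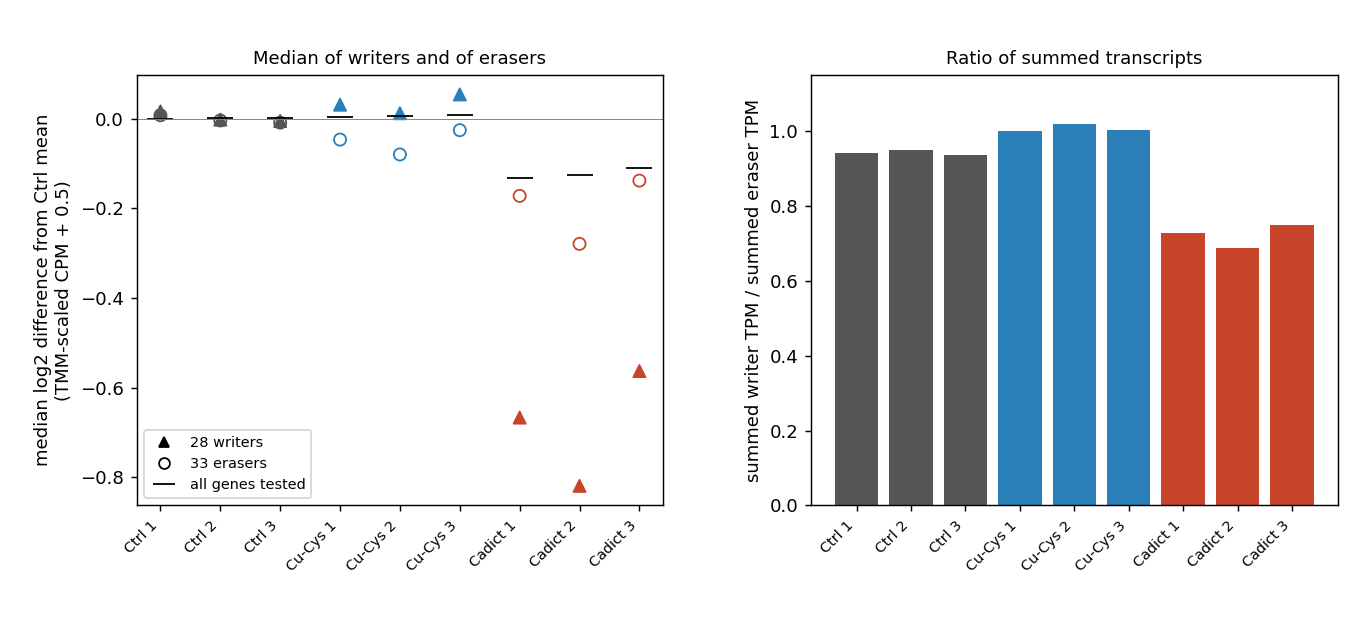
Left, the median log2 difference from the Ctrl mean over 28 writers (triangles), 33 erasers (open circles) and all 11949 genes tested (dashes) in each library, in TMM-scaled CPM with 0.5 added. Right, summed writer TPM divided by summed eraser TPM per library, where the Cadict bars (0.688 to 0.750) stand below all Ctrl and Cu-Cys bars.

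The direction of the smaller changes depended on the scaling, because the libraries differed in composition. TMM factors were 1.26 to 1.27 in Ctrl, 1.21 in Cu-Cys and 0.640 to 0.665 in Cadict. All members together took 0.418% ± 0.0029 of the counts in Ctrl, 0.397% ± 0.0033 in Cu-Cys and 0.223% ± 0.016 in Cadict (SD, n = 3). The median over all genes tested for Cadict against Ctrl, -0.13 on TMM scaling, was -1.08 on library totals and -1.13 on TPM. On library totals 2 members rose and 39 fell by at least 2-fold, and on TPM none rose and 41 fell. On both scales the median change of all genes was itself past 2-fold, so such a fall was not particular to the members. Kdm7a and Kdm6b were higher on TPM as well, at 0.77 (adjusted p = 5.19e-05) and 0.70 (adjusted p = 0.000149), which is under 2-fold on that scale. The other 18 rises were rises relative to the median gene on TMM scaling, and the mean TPM of each of those 18 was lower in Cadict than in Ctrl. The gap between the medians of writers and erasers was -0.75 on TPM. Scaling by size factors or library totals shifts all genes together and cannot move it.

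By family, and beside the 20.7% of all genes that rose and 27.1% that fell, the lysine methyltransferases had a median change of -0.67, with 0 rising and 7 of 20 falling by at least 2-fold. The acetyltransferases had a median of -0.94, with 2 rising and 4 of 8 falling. Demethylases (median -0.22, with 2 rising and 5 of 16 falling) and deacetylases (median -0.22, with 0 rising and 2 of 10 falling) lay closer to the median gene. Sirtuins had a median of 0.46 on TMM scaling, with 1 rising and 1 of 7 falling. The mean TPM of every sirtuin was lower in Cadict than in Ctrl, although the libraries overlapped for Sirt1.

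**Figure D2:**
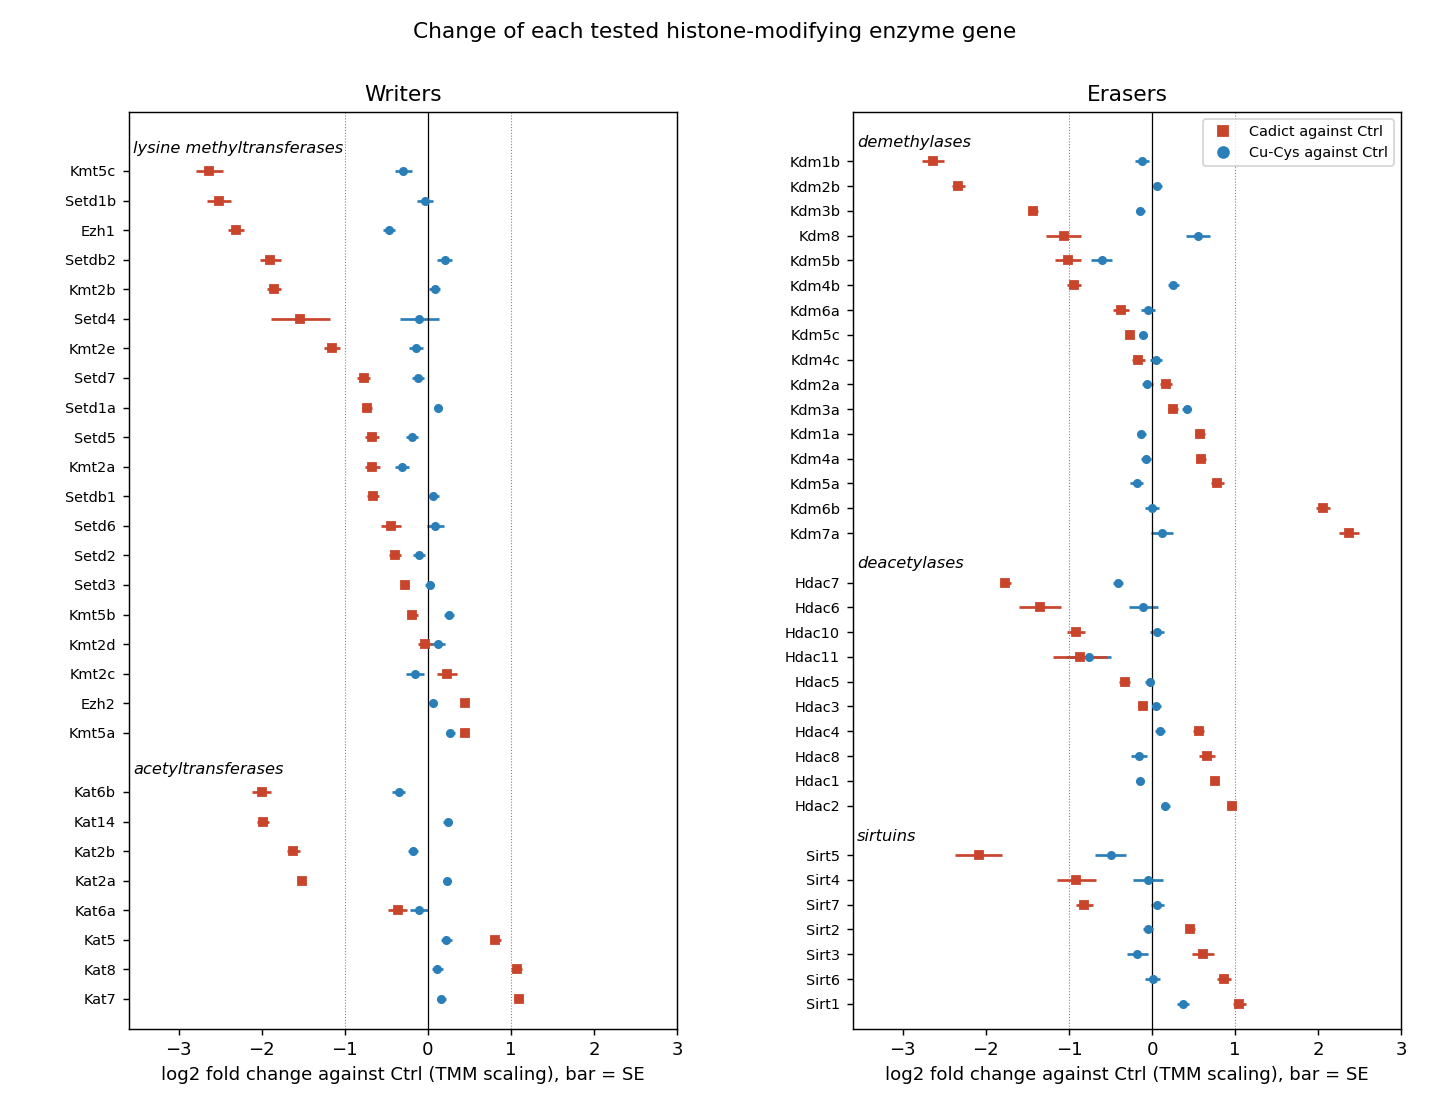
Log2 fold change of each of the 61 members tested against Ctrl on TMM scaling, for Cadict (red squares) and Cu-Cys (blue circles), writers on the left and erasers on the right, with bars of 1 SE and dotted lines at 2-fold. Cadict changes run from -2.64 (Kdm1b) to 2.37 (Kdm7a) and Cu-Cys changes stay within 2-fold; on TPM the means of all the members that rose but Kdm7a and Kdm6b are lower in Cadict than in Ctrl.

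H3K27 methylation is written by Ezh2 and Ezh1 within PRC2 and removed by Kdm6a (Utx) and Kdm6b (Jmjd3). Ezh2 (gene ID 14056), the subunit of dividing cells, stood at 127, 127 and 131 CPM in Ctrl, 134, 137 and 131 in Cu-Cys, and 176, 171 and 176 in Cadict. Its Cadict libraries lay above all others, a rise of 0.44 ± 0.046, adjusted p = 1.8e-07, which was -0.51 on library totals and -0.85 on TPM. Ezh1 (gene ID 14055), the subunit more common in resting cells, stood at 25.7, 26.7 and 25.7 CPM in Ctrl, 18.8, 18.4 and 19.3 in Cu-Cys, and 5.61, 5.84 and 4.28 in Cadict. It stepped down from Ctrl to Cu-Cys to Cadict with no overlap between groups, and fell by 2.31 ± 0.099 on the log2 scale with Cadict (adjusted p = 3.5e-12). Kdm6b (gene ID 216850), a demethylase known to be induced by inflammatory signals, stood at 27.4, 26.8 and 25.5 CPM in Ctrl, 24.1, 25.1 and 30.3 in Cu-Cys, and 107, 103 and 121 in Cadict. Ctrl and Cu-Cys overlapped and every Cadict library was at least 3 times as high, a rise of 2.06 ± 0.084, adjusted p = 1.9e-12. Kdm6a (gene ID 22289), its X-linked relative, stood at 22.9, 22.8 and 23.7 CPM in Ctrl, 19.5, 24.4 and 23.2 in Cu-Cys, and 19.4, 15.3 and 18.9 in Cadict. The Cadict libraries lay below the Ctrl libraries, a change of -0.37 ± 0.1, adjusted p = 0.00256.

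H3K4 methylation is written by the Kmt2 and Setd1 enzymes in COMPASS-like complexes and removed by the Kdm1 and Kdm5 enzymes. The 8 members grouped here as writers are those enzymes, with Kmt2e, which is not known to methylate histones, and Setd7, which monomethylates H3K4 and many other proteins. Of the 8, 3 fell by at least 2-fold (Setd1b, Kmt2b and Kmt2e), none rose, and the median was -0.75. Setd1b (gene ID 208043), an enzyme that trimethylates H3K4 at promoters, stood at 19.7, 22 and 21.3 CPM in Ctrl, 18, 20.9 and 22.8 in Cu-Cys, and 3.65, 2.79 and 4.53 in Cadict. Every Cadict library was below every other library, a change of -2.52 ± 0.14, adjusted p = 1.2e-10. Its relative Setd1a changed by -0.73 ± 0.058, adjusted p = 6.7e-09, but 51.2% of the 50-base stretches of its transcripts in GENCODE M21 are shared with a second gene, so its counts are uncertain. Kmt2a (gene ID 214162), the MLL1 enzyme, stood at 97.2, 104 and 108 CPM in Ctrl, 70.1, 91.6 and 87.9 in Cu-Cys, and 70.2, 58.6 and 65.6 in Cadict, and its Cadict libraries lay below the Ctrl libraries (-0.67 ± 0.091, adjusted p = 4.6e-06). Kmt2b, its closest relative, changed by -1.86 ± 0.082, adjusted p = 4.8e-12. Kmt2d (gene ID 381022), which monomethylates enhancers, stood at 51.9, 58.4 and 48.2 CPM in Ctrl, 56.6, 51.4 and 64.3 in Cu-Cys, and 51.4, 51.2 and 51.9 in Cadict. The groups overlapped, with a change of -0.038 ± 0.085, adjusted p = 0.682, which was 0.082 on DESeq2 size factors and -0.99 on library totals. Kmt2c, the other enhancer enzyme, also overlapped with Ctrl (0.23 ± 0.12, adjusted p = 0.0758), while Kmt2e changed by -1.16 ± 0.098, adjusted p = 1.6e-08 and Setd7 by -0.77 ± 0.078, adjusted p = 1.4e-07.

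On the erasing side of H3K4, Kdm1a and Kdm1b, the flavin-dependent enzymes Lsd1 and Lsd2, moved apart. Kdm1a (gene ID 99982), which works with the CoREST complex, stood at 103, 97.8 and 113 CPM in Ctrl, 96.5, 94.6 and 95.7 in Cu-Cys, and 152, 152 and 164 in Cadict. Its Cadict libraries lay above all others, a rise of 0.57 ± 0.057, adjusted p = 1.1e-07, which was -0.38 on library totals and -0.71 on TPM. Kdm1b (gene ID 218214), known for setting up imprints in the oocyte, stood at 27.8, 26.9 and 26.5 CPM in Ctrl, 22.3, 26.8 and 25.4 in Cu-Cys, and 5.18, 3.14 and 4.7 in Cadict. Ctrl and Cu-Cys overlapped and the Cadict libraries were far below both, the largest fall among members (-2.64 ± 0.13, adjusted p = 1.7e-11). Kdm5b (gene ID 75605), a trimethyl-H3K4 demethylase, stood low throughout, at 5.06, 4.94 and 5.54 CPM in Ctrl, 3.32, 3.02 and 3.88 in Cu-Cys, and 2.63, 2.27 and 2.77 in Cadict. Its groups did not overlap, and the change was -1.01 ± 0.16, adjusted p = 1.8e-05 with Cadict and -0.60 ± 0.13, adjusted p = 0.00143 with Cu-Cys. Kdm5c (gene ID 20591), an X-linked relative, stood at 91.9, 94 and 92.2 CPM in Ctrl, 83.1, 86 and 88.3 in Cu-Cys, and 77.6, 74.4 and 79 in Cadict, and the Cadict libraries lay just below the others (-0.27 ± 0.05, adjusted p = 0.00013). Kdm5a, which binds the retinoblastoma protein, went up on TMM scaling (0.79 ± 0.077, adjusted p = 8.8e-08) although its TPM fell from 18.1 ± 0.368 in Ctrl to 12.9 ± 2.92 in Cadict.

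H3K36 methylation is completed by Setd2, which travels with elongating RNA polymerase II, and removed by Kdm2a and Kdm2b. Setd2 (gene ID 235626) stood at 108, 104 and 104 CPM in Ctrl, 97.7, 97.9 and 98.1 in Cu-Cys, and 81.6, 68.9 and 90.3 in Cadict. The Cadict libraries were lowest, with a change of -0.39 ± 0.073, adjusted p = 0.00012. Setd5, whose own activity is disputed, changed by -0.67 ± 0.079, adjusted p = 8.4e-07. Kdm2a (gene ID 225876), which binds unmethylated CpG islands, stood at 107, 106 and 106 CPM in Ctrl, 101, 102 and 104 in Cu-Cys, and 122, 103 and 134 in Cadict. Cadict replicate 2 fell below all Ctrl libraries while the other two lay above them, so the groups overlapped, and the change of 0.17 ± 0.071, adjusted p = 0.0331 passed the wider threshold only narrowly. It was 0.083 (adjusted p = 0.223) without Cadict replicate 3, lost its call without Cadict replicate 1 or when any single Ctrl library was left out, was 0.11 (adjusted p = 0.156) with at least 10 counts in every library and 0.092 (adjusted p = 0.242) with no filter on low counts, and was -0.78 on library totals and -1.01 on TPM. Kdm2b (gene ID 30841), which recruits a variant of PRC1 to CpG islands, stood at 43.6, 40.5 and 43.3 CPM in Ctrl, 42.9, 43.7 and 46.1 in Cu-Cys, and 8.16, 8.54 and 8.65 in Cadict. Ctrl and Cu-Cys overlapped, and all Cadict libraries lay far below them (-2.33 ± 0.077, adjusted p = 1.7e-13). Kdm8 (gene ID 77035), a JmjC protein whose demethylase activity is disputed, stood at 5.06, 5.76 and 5.23 CPM in Ctrl, 7.43, 8.28 and 7.89 in Cu-Cys, and 1.61, 2.09 and 3.95 in Cadict. Cu-Cys was highest and Cadict lowest, with no overlap and with a change of -1.06 ± 0.21, adjusted p = 0.00022 against Ctrl.

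H3K9 methylation is written among members by Setdb1 and Setdb2, and both fell. Setdb1 (gene ID 84505), which silences retroelements with Trim28, stood at 91.5, 86.7 and 88.2 CPM in Ctrl, 93.5, 93.4 and 92 in Cu-Cys, and 55.2, 49.8 and 63.5 in Cadict. All Cadict libraries were below all others (-0.66 ± 0.07, adjusted p = 2.6e-07). Setdb2 (gene ID 239122), its interferon-inducible relative, stood at 12.1, 11.3 and 11.9 CPM in Ctrl, 13, 14.1 and 13.5 in Cu-Cys, and 3.31, 2.44 and 3.69 in Cadict, again with the Cadict libraries well below the rest (-1.90 ± 0.13, adjusted p = 9.3e-10). Of the 6 erasers tested, Kdm7a rose and Kdm3b fell by at least 2-fold. Kdm7a (gene ID 338523), a PHD-finger demethylase that also acts on H3K27, stood at 7.27, 8.57 and 7.63 CPM in Ctrl, 7.98, 9.19 and 8.35 in Cu-Cys, and 45, 32.2 and 44.1 in Cadict. Ctrl and Cu-Cys overlapped and the Cadict libraries were higher than any of them, the largest rise among members (2.37 ± 0.12, adjusted p = 2.7e-11). Kdm3a (gene ID 104263), a hypoxia-inducible demethylase, stood at 81.1, 83.1 and 86.5 CPM in Ctrl, 108, 115 and 111 in Cu-Cys, and 101, 92.2 and 106 in Cadict. Both treated groups lay above Ctrl, with a change of 0.26 ± 0.058, adjusted p = 0.00074 with Cadict, which was -0.70 on library totals and -0.94 on TPM. Its relative Kdm3b changed by -1.43 ± 0.064, adjusted p = 5.6e-12; 24.6% of its exonic bases overlap a gene on the other strand. Kdm4a (gene ID 230674), which also acts on H3K36, stood at 74.1, 78.8 and 75.4 CPM in Ctrl, 75.3, 70.6 and 71.3 in Cu-Cys, and 123, 110.0 and 111 in Cadict. Its Cadict libraries were highest (0.59 ± 0.057, adjusted p = 7.4e-08), a change that was -0.36 on library totals and -0.69 on TPM. Kdm4b fell by 0.94 ± 0.084 on the log2 scale (adjusted p = 3.1e-08) and Kdm4c did not pass the threshold (-0.16 ± 0.077, adjusted p = 0.0564).

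H4K20 is monomethylated by Kmt5a (Set8), which marks dividing cells, and then di- and trimethylated by Kmt5b and Kmt5c. Kmt5a (gene ID 67956) stood at 138, 135 and 136 CPM in Ctrl, 168, 165 and 161 in Cu-Cys, and 182, 175 and 199 in Cadict. The groups stepped up without overlap, a rise of 0.44 ± 0.053, adjusted p = 1e-06 with Cadict, which was -0.51 on library totals and -0.86 on TPM. Kmt5c (gene ID 232811), the enzyme of pericentric heterochromatin, stood at 13.6, 12.7 and 11.8 CPM in Ctrl, 11, 9.88 and 10.1 in Cu-Cys, and 2.89, 1.83 and 1.43 in Cadict. It stepped down without overlap and changed by -2.63 ± 0.17, adjusted p = 3.8e-10 with Cadict. Kmt5b lay between them (-0.19 ± 0.067, adjusted p = 0.0145). The SET proteins with mainly other substrates all passed the wider threshold as lower: Setd3 at -0.28, Setd6 at -0.45 and Setd4 at -1.53, the last from levels of at most 1.69 CPM.

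Of the 8 acetyltransferases, Kat2a, Kat2b and Kat14, the GNAT-family and ATAC enzymes, fell, and so did Kat6a and Kat6b of the MYST family. The MYST enzymes Kat5, Kat7 and Kat8 rose on TMM scaling, and on TPM Kat5 and Kat8 fell and Kat7 did not pass the threshold. Kat2a (gene ID 14534), the Gcn5 enzyme of SAGA and ATAC, stood at 101, 100.2 and 97.5 CPM in Ctrl, 124, 113 and 114 in Cu-Cys, and 34.7, 33.7 and 35.6 in Cadict. Cu-Cys lay above Ctrl and Cadict far below both (-1.52 ± 0.058, adjusted p = 9e-13). Kat14 (gene ID 228714), an ATAC subunit, stood at 50.6, 49.6 and 49.7 CPM in Ctrl, 60, 55.4 and 61.4 in Cu-Cys, and 12.6, 11.8 and 13.6 in Cadict, with the same order of groups (-1.98 ± 0.074, adjusted p = 7.4e-13); 13% of its 50-base stretches occur in another gene. Kat2b, the PCAF enzyme, changed by -1.62 ± 0.077, adjusted p = 1.2e-11. Kat6b (gene ID 54169), the Morf enzyme, stood at 17.6, 16.8 and 17.5 CPM in Ctrl, 12.9, 15.2 and 12.5 in Cu-Cys, and 4.5, 3.92 and 4.53 in Cadict. It stepped down without overlap and changed by -2.0 ± 0.11, adjusted p = 1.3e-10, against -0.36 ± 0.11, adjusted p = 0.0079 for its relative Kat6a, the Moz enzyme.

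Kat7 (gene ID 217127), the Hbo1 enzyme of replication origins, stood at 147, 151 and 151 CPM in Ctrl, 168, 169 and 164 in Cu-Cys, and 330.0, 292 and 336 in Cadict. The Cadict libraries were well above the others, a rise of 1.09 ± 0.055, adjusted p = 2.4e-11, which was 0.14 on library totals and -0.19 on TPM, where the Cadict and Ctrl libraries overlapped. Kat8 (gene ID 67773), the Mof enzyme that acetylates H4K16, stood at 15.2, 17.3 and 17.1 CPM in Ctrl, 17.8, 18.2 and 17.7 in Cu-Cys, and 35.3, 34.9 and 33.8 in Cadict. All Cadict libraries lay above all others (1.07 ± 0.07, adjusted p = 6.3e-10), with 0.11 on library totals and -0.23 on TPM. Kat5 (gene ID 81601), the Tip60 enzyme of DNA repair, stood at 34, 35.1 and 31 CPM in Ctrl, 39.6, 39.4 and 37.9 in Cu-Cys, and 55.7, 61.9 and 58.3 in Cadict. The groups stepped up without overlap, and the rise of 0.81 ± 0.064, adjusted p = 6.8e-09 with Cadict was -0.14 on library totals and -0.47 on TPM.

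Deacetylases rose and fell within as well as between classes. Of the nuclear class I enzymes, Hdac1, Hdac2 and Hdac8 went up and Hdac3 did not pass the threshold, with a class median of 0.71 on TMM scaling, and the mean TPM of all 4 was lower in Cadict than in Ctrl. Hdac1 (gene ID 433759), the member highest in TPM, stood at 167, 171 and 173 CPM in Ctrl, 157, 152 and 153 in Cu-Cys, and 282, 306 and 276 in Cadict. Its Cadict libraries were highest and Cu-Cys lowest (0.76 ± 0.05, adjusted p = 6.7e-10), with -0.20 on library totals and -0.55 on TPM, and 35.3% of its 50-base stretches occur in another gene. Hdac2 (gene ID 15182), its partner in the Sin3, NuRD and CoREST complexes, stood at 109, 101 and 101 CPM in Ctrl, 117, 119 and 113 in Cu-Cys, and 202, 198 and 206 in Cadict. The rise was 0.96 ± 0.049, adjusted p = 3.4e-11 with no overlap, and was 0.0036 on library totals and -0.35 on TPM. Hdac3 (gene ID 15183), the enzyme of the NCoR and SMRT corepressors, stood at 61.5, 62.7 and 61.2 CPM in Ctrl, 66.4, 63.6 and 62.3 in Cu-Cys, and 55.7, 59.8 and 56.1 in Cadict. Its Cadict libraries lay just below Ctrl (-0.11 ± 0.055, adjusted p = 0.0653), and the change was 0.0069 on DESeq2 size factors and -1.07 on library totals. It passed the threshold at -0.17 (adjusted p = 0.00702) with at least 10 counts in every library, at -0.19 (adjusted p = 0.00667) with no filter on low counts, at -0.15 (adjusted p = 0.0176) without Cadict replicate 2 and at -1.39 (adjusted p = 1.3e-10) on TPM. Hdac8 changed by 0.66 ± 0.098, adjusted p = 1.1e-05.

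Hdac7 (gene ID 56233), a signal-regulated class IIa corepressor, stood at 109, 108 and 101 CPM in Ctrl, 84.1, 74 and 81.8 in Cu-Cys, and 30.4, 32.9 and 30.3 in Cadict. It stepped down from Ctrl to Cu-Cys to Cadict without overlap and changed by -1.77 ± 0.066, adjusted p = 8e-13 with Cadict. In the same class Hdac5 changed by -0.33 ± 0.063, adjusted p = 0.00014 and Hdac4 by 0.56 ± 0.065, adjusted p = 7.2e-07, the latter with 22.4% of its exonic bases overlapping a gene on the other strand and a TPM of 6.98 ± 0.242 in Ctrl and 4.18 ± 0.646 in Cadict. The mainly cytoplasmic Hdac6 (-1.35 ± 0.25, adjusted p = 0.00012) and Hdac10 (-0.91 ± 0.11, adjusted p = 1.5e-06) were lower, and Hdac11 (-0.87 ± 0.33, adjusted p = 0.0216) had at most 2.60 CPM. Hdac9 had 9 counts over all libraries and was not tested, as were Kdm4d with 8 and Ezhip with 1.

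Sirt1 (gene ID 93759), a nuclear deacetylase that depends on NAD, stood at 32.7, 30.5 and 30 CPM in Ctrl, 39, 40.9 and 40.8 in Cu-Cys, and 67.1, 56.6 and 69.5 in Cadict. The groups stepped up without overlap, a rise of 1.05 ± 0.074, adjusted p = 1.5e-09 with Cadict, which was 0.10 on library totals and -0.23 on TPM, where the Cadict and Ctrl libraries overlapped. Sirt6 (gene ID 50721), which acts at H3K9 and H3K56 and in DNA repair, stood at 9.73, 11 and 10.3 CPM in Ctrl, 9.87, 11.2 and 10.1 in Cu-Cys, and 17.8, 19.3 and 19.5 in Cadict. Ctrl and Cu-Cys overlapped and Cadict lay above them (0.87 ± 0.086, adjusted p = 1.1e-07), with -0.084 on library totals and -0.33 on TPM. Sirt2, a tubulin deacetylase, and the mitochondrial Sirt3 had changes of 0.46 and 0.62 on TMM scaling, and lower TPM in Cadict than in Ctrl. The other mitochondrial sirtuins were lower on every scale, with Sirt5, a desuccinylase, at -2.09 ± 0.29, adjusted p = 4.9e-06 and Sirt4 at -0.91 ± 0.24, adjusted p = 0.00202, and the nucleolar Sirt7 was lower as well (-0.81 ± 0.099, adjusted p = 1.3e-06).

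With Cu-Cys the histone-modifying enzymes moved little, as did most genes tested. None of the 61 members tested reached 2-fold with an adjusted p up to 0.001 by edgeR, where 0.167% of all genes rose and 1.47% fell. By DESeq2 and by limma on TPM the count was also 0. At an unadjusted p under 0.05, 13 were higher and 15 lower, beside 3170 higher and 3107 lower of all 11949 genes tested. Under the wider rule 11 members rose and 11 fell, against a background of 22.6% and 22.4%. The 11 that rose were Kat2a, Kat5, Kat7, Kat14, Kmt5a, Kmt5b, Kdm3a, Kdm4b, Kdm8, Hdac2 and Sirt1. The 11 that fell were Ezh1, Kmt2a, Kmt5c, Kat2b, Kat6b, Kdm3b, Kdm5b, Hdac1, Hdac7, Hdac11 and Sirt5. The median was 0.042 over writers and -0.049 over erasers, with 0.0067 over all genes tested.

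The largest Cu-Cys changes among members with a mean of at least 5 CPM belonged to Kdm8, Ezh1, Kdm3a and Hdac7, whose library values are given above. Kdm8 rose by 0.56 ± 0.15, adjusted p = 0.00656, and on TPM the change of 0.36 did not pass the threshold (adjusted p = 0.0552). Ezh1 changed by -0.47 ± 0.071, adjusted p = 0.00011 and Hdac7 by -0.41 ± 0.058, adjusted p = 5.9e-05, and Kdm3a by 0.42 ± 0.057, adjusted p = 4.1e-05. In these 4 the Cu-Cys and Ctrl libraries did not overlap. Smaller rises were seen for Sirt1 (0.37 ± 0.073, adjusted p = 0.00079), Kmt5a (0.27 ± 0.052, adjusted p = 0.00077), Kat14 (0.24 ± 0.057, adjusted p = 0.0036), Kat2a (0.23 ± 0.05, adjusted p = 0.00184) and Kat5 (0.22 ± 0.063, adjusted p = 0.00998). By limma on TPM none of these rises passed the wider threshold. There Sirt1 was 0.22 (adjusted p = 0.151), Kmt5a 0.12 (adjusted p = 0.326) and Kat14 0.095 (adjusted p = 0.474). Kat2a was 0.085 (adjusted p = 0.474) and Kat5 0.088 (adjusted p = 0.38). Smaller falls were seen for Kat6b (-0.35 ± 0.082, adjusted p = 0.00295) and Kmt2a (-0.31 ± 0.086, adjusted p = 0.00946), the latter with an adjusted p of 0.0502 without Ctrl replicate 3. Kat5 had an adjusted p of 0.0643 without Ctrl replicate 3. The changes of Kat7 (0.16 ± 0.054, adjusted p = 0.0285), Hdac2 (0.16 ± 0.049, adjusted p = 0.015), Hdac1 (-0.15 ± 0.05, adjusted p = 0.027) and Kmt5c (-0.30 ± 0.1, adjusted p = 0.0296) passed narrowly, and each lost its call when any of several single libraries was left out. Kat7 (0.023, adjusted p = 0.875) and Hdac2 (0.017, adjusted p = 0.89) did not pass by limma on TPM either. Both comparisons with Ctrl use the same Ctrl libraries, so their values stand side by side and were not correlated.

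Cadict against Cu-Cys shares no Ctrl library and asks what the glucose oxidase and GE11 peptide added to the particle. Under the stricter rule 2 members were higher in Cadict and 18 lower, against a background of 18.6% and 23.6%. Under the wider rule 20 were higher and 39 lower, against 40.3% and 45.6%. The 2 higher were Kdm6b (2.06 ± 0.084, adjusted p = 2.6e-12) and Kdm7a (2.25 ± 0.12, adjusted p = 6e-11). The largest falls included Kdm1b (-2.51 ± 0.13, adjusted p = 4.5e-11), Setd1b (-2.49 ± 0.14, adjusted p = 1.8e-10), Kdm2b (-2.39 ± 0.077, adjusted p = 1.7e-13), Kmt5c (-2.33 ± 0.17, adjusted p = 3e-09), Kat14 (-2.22 ± 0.073, adjusted p = 2.4e-13) and Setdb2 (-2.10 ± 0.13, adjusted p = 2.7e-10). Ezh1, already lower with Cu-Cys, differed by a further -1.84 ± 0.1, adjusted p = 1.1e-10, and Kat6b by -1.64 ± 0.12, adjusted p = 2.5e-09. Kat7, Kat8 and Sirt1 were higher by 0.94, 0.95 and 0.68 on TMM scaling. On TPM they were at -0.21 (adjusted p = 0.0538), -0.21 (adjusted p = 0.0257) and -0.45 (adjusted p = 0.00236). The median was -0.59 over the 28 writers and -0.16 over the 33 erasers, a difference of -0.43, where the median over all genes tested was -0.099.

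Related enzymes were compared by the ratio of their TPM within a library, which does not depend on library scaling. Among the 26 pairs of tested members whose symbols differ only in the last letter, both fell with Cadict under the wider rule in 8 (such as Kmt2a and Kmt2b, or Setd1a and Setd1b), they went opposite ways on TMM scaling in 9, and in the other 9 at least 1 did not pass. The ratio in Cadict overlapped with that in Ctrl in 2 of the 26. The same count was not made for pairs of other genes, so it cannot be called particular to these enzymes. The pairs below were chosen after their values were seen, most of them because they moved apart, and the ratios are descriptions. Ezh2 stood at 8.01 to 8.56 times Ezh1 in Ctrl, 11.4 to 12.5 times in Cu-Cys and 49.5 to 69.8 times in Cadict. For Kdm1a over Kdm1b the ratio was 5.06 to 6.26 in Ctrl, 4.92 to 5.65 in Cu-Cys and 41.4 to 72.5 in Cadict. The Cadict ratios were thus several times the others, while those of Ctrl and Cu-Cys overlapped for the Kdm1 pair and not for the Ezh pair. Kmt5a over Kmt5c went from 8.78 to 9.96 in Ctrl through 13.3 to 14.3 in Cu-Cys to 52.1 to 134 in Cadict. Kdm2a over Kdm2b was 1.46 to 1.6 in Ctrl and 6.83 to 9.49 in Cadict. Kdm6b over Kdm6a was 0.983 to 1.09 in Ctrl, 0.952 to 1.2 in Cu-Cys and 5.08 to 6.1 in Cadict, so the H3K27 erasers were level in Ctrl and Cu-Cys and at least 5 times apart in Cadict. Kdm3a over Kdm3b stepped up in both treated groups, from 1.94 to 2.13 to 2.95 to 3.18 and 6.52 to 7.3. Hdac4 over Hdac7 did likewise, from 0.116 to 0.12 to 0.156 to 0.18 and 0.516 to 0.648. Among acetyltransferases, Kat7 over Kat2a, which are of different families, was 1.27 to 1.35 in Ctrl, 1.19 to 1.31 in Cu-Cys and 7.82 to 8.49 in Cadict. Kat2a and its own relative Kat2b both fell, and their ratio in Cadict overlapped with that in Ctrl. Hdac2 over Hdac1 was 0.573 to 0.64 in Ctrl, 0.725 to 0.762 in Cu-Cys and 0.634 to 0.729 in Cadict, so Cadict overlapped with Ctrl and Cu-Cys lay above Ctrl.

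**Figure D3:**
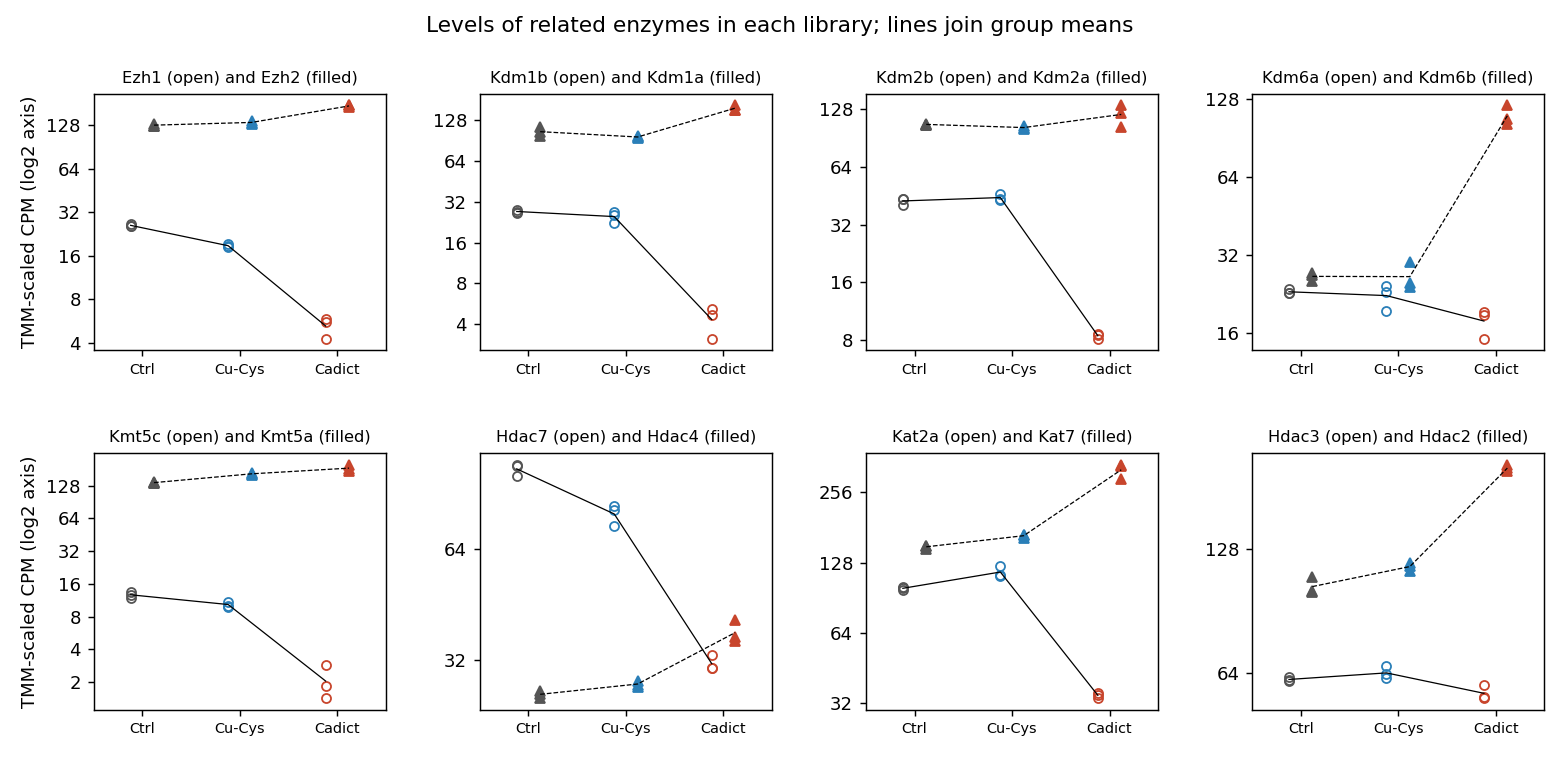
TMM-scaled CPM (log2 axis) in each library for 8 pairs of enzymes, with open circles for the first named, filled triangles for the second and lines through the group means. Kat2a and Kat7 are both acetyltransferases but of different families. Ezh1, Kdm1b, Kdm2b, Kmt5c, Hdac7 and Kat2a drop with Cadict while the gene paired with each does not. On TPM the rises of Ezh2, Kdm1a, Kdm2a, Kmt5a, Hdac4 and Hdac2 turn to falls and Kat7 does not pass the threshold.

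Enzymes that write and erase the same mark were compared the same way. Each member was assigned to a single mark for this, which gave 62 pairs of a tested writer and a tested eraser of H3K4, H3K9, H3K27 or H3K36. Kdm4a and Kdm7a were thus paired for H3K9 only. Kmt2e, Setd5 and Kdm8 were counted although their activity is not known or disputed, and the tallies depend on these choices. The ratio of writer to eraser was lower in every Cadict library than in any Ctrl library in 40 pairs, higher in 19, and overlapped in 3. By mark the ratio was lower in 25 of 40 pairs for H3K4, 10 of 12 for H3K9, 3 of 4 for H3K27 and 2 of 6 for H3K36, where it was higher in 4. Pairs share members and pairs of other genes were not counted beside them, so these are counts and not a test. The following 3 pairs, chosen after their values were seen, are among those with a lower ratio. Ezh2 stood at 12.6 to 13.9 times Kdm6b in Ctrl, 11.7 to 15.2 times in Cu-Cys and 3.9 to 4.59 times in Cadict. For H3K4, Kmt2a over Kdm5a was 0.87 to 0.954 in Ctrl, 0.742 to 0.92 in Cu-Cys and 0.304 to 0.365 in Cadict. For H3K9, Setdb1 over Kdm4a was 1.1 to 1.23 in Ctrl, 1.23 to 1.32 in Cu-Cys and 0.449 to 0.569 in Cadict. Pairs that went the other way included Ezh2 over Kdm6a, Kmt2a over Kdm1b, Setdb1 over Kdm3b and Setd2 over Kdm2b. Levels of the marks themselves were not measured.

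Transcript length moved with the change over all genes, and the medians of writers and of erasers were both above that of all genes. The length implied by the deposited counts and FPKM had a median of 4086 bases over writers, 3594 over erasers and 2620 over the 11636 genes tested that had one. By family the median was 5331 over lysine methyltransferases, 3257 over acetyltransferases, 5471 over demethylases, 2051 over deacetylases and 1284 over sirtuins. Across those genes the Spearman correlation of length with the Cadict change was -0.21, and across the 61 members it was -0.094. Within the writers it was -0.13 and within the erasers 0.032. Genes of up to 1000 bases, a class with no member, had a median change of 0.72. From 1000 to 2000 bases the median was 0.063 over all 2741 genes, 0.18 over 4 writers and 0.54 over 10 erasers. From 2000 to 4000 bases it was -0.32 over all 4463 genes, -1.57 over 10 writers and -0.89 over 12 erasers. From 4000 to 6000 bases it was -0.46 over all 1885 genes, -0.66 over 3 writers and -0.66 over 4 erasers. Above 6000 bases it was -0.37 over all 1147 genes, -0.67 over 11 writers and 0.56 over 7 erasers. Genes are not independent replicates, and the part of length in the difference was not tested further.

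**Figure D4:**
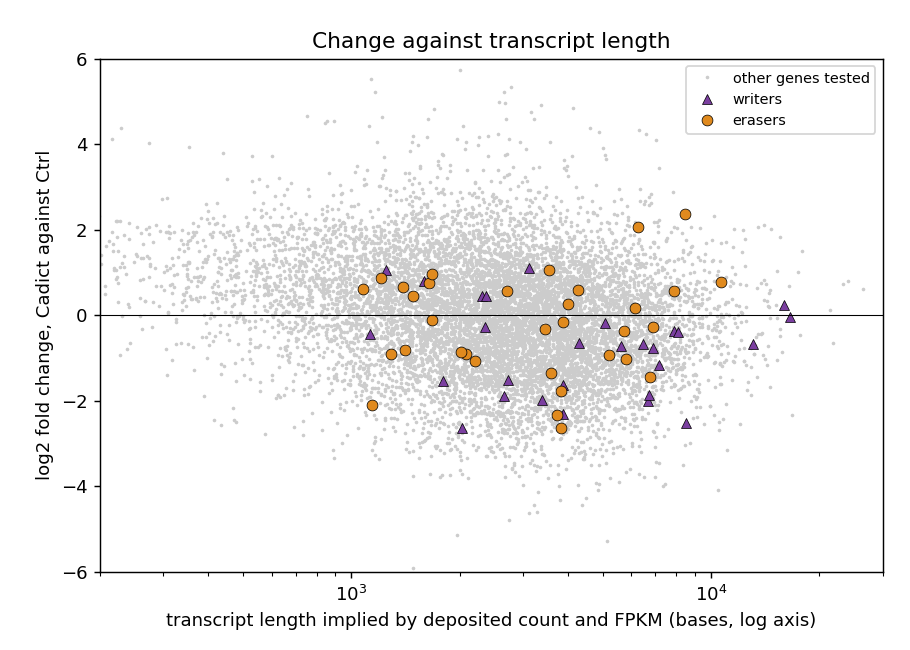
Log2 fold change with Cadict against Ctrl on TMM scaling (vertical axis) against implied transcript length in bases (log axis) for writers (purple triangles), erasers (orange circles) and all other genes tested (grey points). Writers and erasers lie at 1075 bases and above, and the median change of all genes is 0.72 up to 1000 bases and -0.37 above 6000 bases.

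Genes of the same pathways outside the symbol rule were taken from 7 lists, to be read against the 20.7% of all genes that rose and 27.1% that fell. Of 22 other lysine writers, 2 rose and 5 fell by at least 2-fold with Cadict, with a median of -0.15. Smyd3, a SET and MYND domain methyltransferase, changed by 2.19 ± 0.073, adjusted p = 2e-13, and Suv39h1, which trimethylates H3K9 in heterochromatin, by -1.52 ± 0.075, adjusted p = 2.1e-11. Of 7 other erasers tested, 1 rose and 1 fell. These were Jmjd6, a JmjC lysyl hydroxylase, at 1.34 ± 0.059, adjusted p = 4.5e-12, which was also higher with Cu-Cys (0.70 ± 0.058, adjusted p = 4.6e-07), and Riox1, a nucleolar oxygenase, at -3.98 ± 0.16, adjusted p = 1.6e-12. Riox1 fell from 15.2, 14.9 and 14.5 CPM in Ctrl to 1.1, 0.959 and 0.756 in Cadict. Of 8 arginine methyltransferases tested, 3 fell and 0 rose, led by Prmt9 (-2.61 ± 0.13, adjusted p = 3e-11) and Prmt6 (-2.25 ± 0.16, adjusted p = 1.3e-09).

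The partners that carry the members in complexes also moved unevenly. Among 9 PRC2 partners, 2 rose and 1 fell. Eed, which reads trimethylated H3K27, stood at 52.7, 51 and 55.2 CPM in Ctrl, 62.6, 62.6 and 60.4 in Cu-Cys, and 142, 144 and 142 in Cadict, a rise of 1.43 ± 0.05, adjusted p = 3.7e-13, while the accessory Phf19 changed by -1.60 ± 0.069, adjusted p = 4.1e-12. Among 13 COMPASS partners 0 rose and 4 fell, with Ncoa6 at -1.40 ± 0.065, adjusted p = 8.5e-12 and Pagr1a at -1.23 ± 0.12, adjusted p = 7.5e-08. Among 29 deacetylase partners 2 rose and 6 fell, with Chd4, the NuRD remodeller, at -1.61 ± 0.047, adjusted p = 4.4e-14 and Sap18 at 1.43 ± 0.084, adjusted p = 1.5e-10. Among 39 acetyltransferase partners 2 rose and 12 fell. There Jade2, a scaffold for Kat7, changed by -3.65 ± 0.089, adjusted p = 5.7e-15 and Tada1, of SAGA, by -2.26 ± 0.098, adjusted p = 4e-12, so Jade2 fell while Kat7 rose relative to the median gene. With Cu-Cys none of the 7 lists held a gene changed by 2-fold at the stricter threshold by edgeR.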

How the data were processed

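The authors deposited, per gene and library, RSEM expected counts, TPM, FPKM and a size-factor-normalised count signal, beside group averages. Their processing notes name HISAT2 2.1.0, Bowtie2 2.3.4.3, RSEM 1.3.1 and the builds GRCm39 and GRCh38.p13, with no role given. The labels describe a kit extraction and DNA nanoball sequencing, the methods TRIzol and an Illumina instrument. Columns headed CC and CCGE were read as Cu-Cys and Cadict. Group averages and the normalised signal were not used.

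Expected counts were rounded and tested with edgeR 4.0.16 (R 4.3.3) after filterByExpr and TMM scaling, in a single quasi-likelihood fit of the 3 groups, with Benjamini-Hochberg adjustment over 11949 genes. Calls needed a fold of 2 or more and an adjusted p up to 0.001, the thresholds of the study. On simulated counts (11731 genes, 200 changed by 4-fold, Cadict against Ctrl) 200 of 200 changed genes and 0 unchanged genes were called. In the data 47.8% of all genes tested were called for Cadict against Ctrl. Recovery with that share of genes changed was not tested. DESeq2 1.42.0, limma 3.58.1 on the deposited TPM (1 added before log2), other scalings, filters, a replicate block and leaving out each library were alternatives. Deposited counts and FPKM gave transcript lengths. Total counts were about equal across libraries, TMM factors were lower in Cadict, and the precision is in the replicate spread.

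Members and lists were chosen with earlier results of these data known. Library values are given for the members with the largest calls (up to 8 per direction with Cadict, and 4 with Cu-Cys under an adjusted p limit of 0.05), with a mean of at least 5 CPM, and for the main writers and erasers of each mark, 34 members in all. From each list of related genes the 2 largest changes at the same mean CPM are named. Promoter windows are RefSeq's for GRCm38.p6. Shared stretches of 50 bases and exon overlaps came from GENCODE M21, which may differ from the authors' annotation. Gene coordinates of the authors' build were not used here.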

Additional observations from a re-analysis of the deposited data

How the results depend on the processing

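Members called with Cadict against Ctrl numbered 24, 41 on library totals, 41 on TPM and 57 with an adjusted p up to 0.05 whatever the fold (21 to 23 with a library left out). For Cadict against Cu-Cys they numbered 20, and 42, 38 and 59 under the same alternatives (18 to 21). For Cu-Cys against Ctrl they numbered 0, and 22 whatever the fold (0 to 0). The other alternatives gave 21 to 23 for Cadict against Ctrl, 0 for Cu-Cys against Ctrl and 20 to 22 for Cadict against Cu-Cys. The median over all genes tested for Cadict against Ctrl was -1.08 on library totals and -1.13 on TPM, against -0.13 on TMM scaling.

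The writer median minus the eraser median kept its sign throughout. For Cadict against Ctrl it was -0.51, -0.56 with at least 10 counts in every library, -0.75 on TPM, and -0.56 to -0.45 with a library left out. For Cadict against Cu-Cys it was -0.43, -0.37, -0.55 and -0.48 to -0.41 in that order. For Cu-Cys against Ctrl it was 0.090, 0.11 with at least 10 counts, and 0.037 to 0.095 with a library left out, the lowest without Cu-Cys replicate 2.

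With Cadict against Ctrl these members turned direction on library totals: Kdm3a (-0.70), Ezh2 (-0.51), Kdm1a (-0.38), Kdm2a (-0.78), Kdm4a (-0.36), Kmt5a (-0.51), Kat5 (-0.14), Hdac1 (-0.20) and Sirt6 (-0.084). On TPM the same members turned, to -0.94, -0.85, -0.71, -1.01, -0.69, -0.86, -0.47, -0.55 and -0.33 in that order, and so did Kat7 (-0.19), Kat8 (-0.23), Sirt1 (-0.23) and Hdac2 (-0.35). With DESeq2 size factors and with its Wald test Kmt2d was 0.082 and 0.082, and Hdac3 0.0069 and 0.0069. Kmt2d ran from -0.11 to 0.034 with a library left out, the latter without Ctrl replicate 2. Against Cu-Cys, Kat7 (-0.21), Kat8 (-0.21) and Sirt1 (-0.45) turned on TPM, and Sirt1 (-0.20) on library totals. For Cu-Cys against Ctrl, 8 of the 16 members with values given lost their call on TPM. The scalings differ by what they hold constant between groups, and these data do not fix which applies.

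The replicate numbers were not used to pair the samples, and same-numbered libraries had correlations of deviations from -0.14 to 0.13 over 9706 genes. Such values show no pairing but cannot tell whether same-numbered libraries were prepared together. With the number as a replicate block the calls were 23, 0 and 20 for the 3 comparisons and the differences of medians -0.51, 0.091 and -0.43. Low counts limit Setd4, Hdac6, Hdac11, Sirt4 and Sirt5.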
